A study of Mus musculus with 18 samples.

Results

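Cluster 11 was a group of 179 cells among the 3993 kept cells of the corpus gastric units, and among the 4484 kept cells of both experiments. Its cells were taken by the cluster number that the authors had assigned, and the study placed the cluster in the isthmus. The corpus cells came from male WT mice of strain C57BL/6J, aged 10 weeks, with no treatment. They were prepared as 2 pools of 3 mice, written K and T as in the labels, each prepared by a different operator, so that pool, mice and operator cannot be told apart. Living nucleated cells, Hoechst33342(+) and ToPro3(-), were sorted 1 to a well into 6 plates of 384 wells per pool, after enzymatic dissociation into single cells. Transcripts were counted with Quartz-Seq2, a plate-based single-cell method that counts unique molecular identifiers (UMIs), one per captured mRNA molecule. The other experiment held corpus and antrum together, in 2 further pools. Its mice were of the same genotype, strain, sex and age, with no treatment described.

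The gastric corpus is lined by tubular glands. The isthmus is the zone of the gland where cells divide, and it supplies the surface pit cells above and the neck cells below. Pit cells make the gel-forming mucin Muc5ac and the gastrokines Gkn1 and Gkn2, neck cells make the mucin Muc6, and neck cells can go on to become pepsinogen-secreting chief cells. Pgc encodes progastricsin, a pepsinogen.

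Of the 179 cells, 70 came from pool K and 109 from pool T, and every one of the 12 plates held some. Median depth was 31337 UMIs and 6569 detected genes per cell, close to that of pre-pit cluster 4 at 32262 UMIs, below isthmus cluster 5 at 50083 and above neck cluster 0 at 24232. The median share of mitochondrial UMIs was 4.51%. Well barcodes were reused on every plate, so all 384 recur between plates by design. Cells were compared as UMIs summed per cluster and pool over the 14 epithelial clusters and scaled by their totals to counts per 1e6 UMIs (CPM). Because the clusters were made from these same counts, differences between clusters are given as sizes, with no p. A gene was called higher or lower where it differed at least 2-fold in the edgeR fit, where both pools lay apart, and where the higher group held at least 10 UMIs in each pool. CPM were scaled with the factors of the fit, whereas single cells and groups of cells are scaled to all their UMIs, per 10000 or as CPM, and plate sums were scaled among the plates, so levels compare only within a paragraph. Levels of a group of clusters are means of their CPM, whereas fold changes average the clusters on a log scale. Plates of a pool share their mice, so p-values between pools describe these 2 pools.

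The cluster carried both marker genes, at levels between those of pit-like and neck cells. Muc5ac (chr7:141342709-141372968 in GRCm39, protein coding) stood at 1340 CPM in pool K and 1437 CPM in pool T. It stood at 1943 and 1462 CPM in isthmus clusters 3, 5, 6 and 9, at 3847 and 4342 CPM in pre-pit cluster 4, and at 73.7 and 87.4 CPM in neck clusters 0, 2 and 7. Cluster 11 was therefore lower than pre-pit cells (log2 fold change -1.56, SE 0.43) and higher than neck cells (4.28, SE 0.33), and both its pools lay below both pools of the isthmus clusters by less than the 2-fold limit (-0.29, SE 0.34). Pgc (chr17:48037760-48045407) stood at 33760 and 29000 CPM, against 37830 and 37400 CPM in the isthmus clusters, 27100 and 21950 CPM in pre-pit cells, and 120300 and 127300 CPM in neck cells. It was called lower against neck cells alone (-1.96, SE 0.11). Muc6 (chr7:141213373-141241641 on the minus strand) stood at 74.7 and 105 CPM, below the isthmus clusters at 215.9 and 229.6 CPM and the neck clusters at 1698 and 1861 CPM, and above pre-pit cells at 24.9 and 17.6 CPM.

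**Figure D1:**
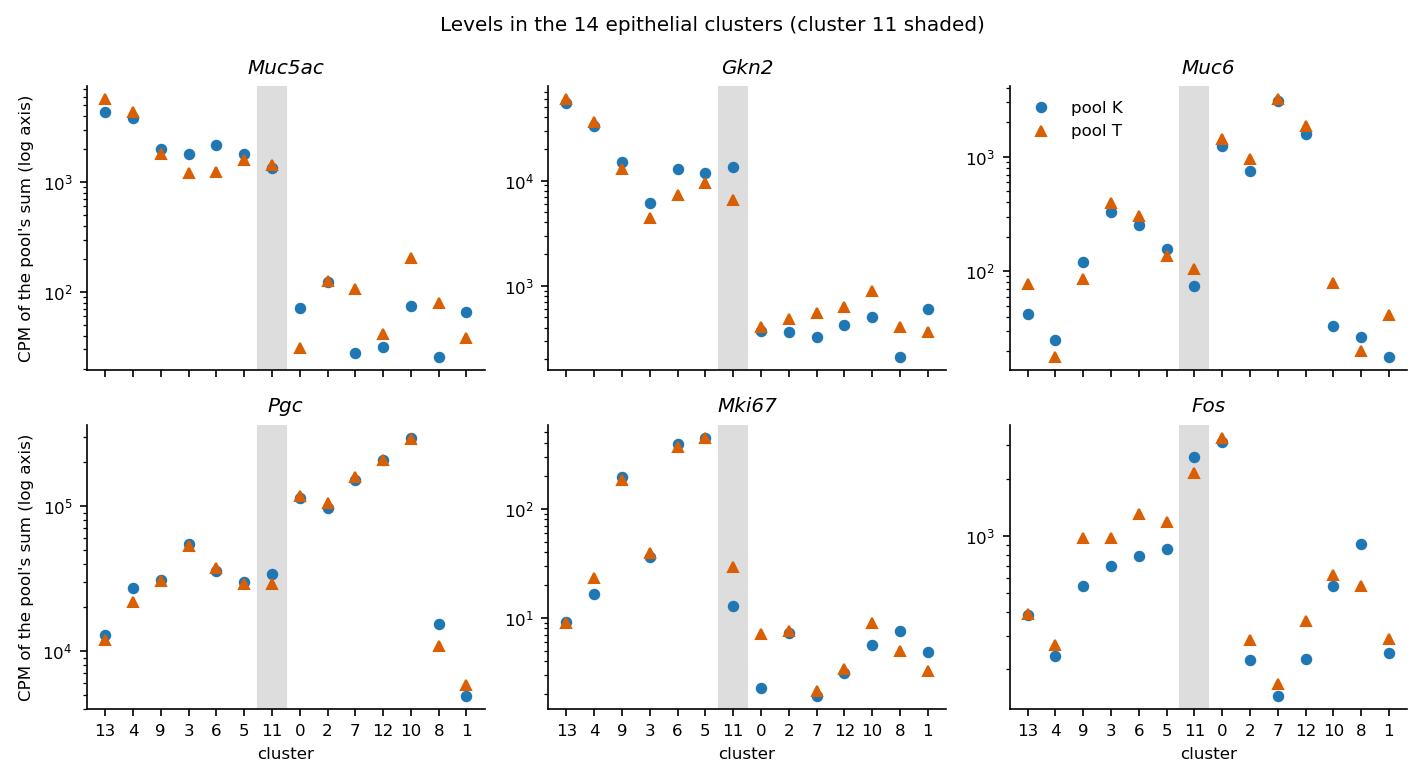
Each panel plots the CPM of 1 gene on a log axis in the 14 epithelial clusters, with a circle for pool K and a triangle for pool T, and cluster 11 shaded. Muc5ac in cluster 11 lies at 1340 and 1437 CPM, Mki67 at 12.9 and 29.3 CPM, far under the 184.8 to 447.8 CPM of clusters 5, 6 and 9, and Fos at 2608 and 2145 CPM, above every cluster other than neck cluster 0.

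The genes that mark the dividing isthmus were low in these cells. Of the 11 isthmus markers, 10 were lower than in isthmus clusters 3, 5, 6 and 9 and none was higher, with a list median of -2.82 on the log2 scale against 0.031 over all 12922 genes tested. Against all genes, 726 were lower (5.62%) and 263 were higher (2.04%). Against pre-pit cluster 4, 0 of the 11 differed in either direction, with a list median of 0.19 against -0.036 over all genes. Against the neck clusters 5 of the 11 were higher. Stmn1, a microtubule regulator, stood at 10.7 and 12.5 CPM, against 61.8 and 59 CPM in the 4 isthmus clusters and 6.34 and 9.82 CPM in pre-pit cells. The 11 markers together made up 0.0235% and 0.03% of UMIs in pools K and T of cluster 11, 0.0209% and 0.0217% in pre-pit cells, and 0.0785% to 0.279% in the 4 isthmus clusters. These markers are genes of dividing cells, and the cluster was taken as one of mostly G1 cells, while clusters 3, 5, 6 and 9 held S and G2/M cells for the most part. Their deficit was therefore fixed by phase and does not bear on the isthmus label, which these markers could not check. The cells are called cluster 11 from here on.

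Genes of the cell cycle were low as well. The authors' phase calls put 153 of the 179 cells in G1, 19 in S and 7 in G2/M, while all 339 cells of cluster 3 were in S and all 279 of cluster 5 in G2/M. All 20 mitosis genes measured were lower than in the isthmus clusters, with a median of -4.30 on the log2 scale, and 15 of the 20 DNA replication genes were lower, with a median of -1.89. Aurkb, a mitotic kinase (chr11:68936467-68944764), had the largest deficit among genes at 50 CPM or more, at 0.74 and 1.36 CPM against 101.2 and 108.1 CPM (-5.66, SE 0.31). Top2a, the topoisomerase that untangles replicated DNA, stood at 4.05 and 7.04 CPM against 318.9 and 321.7 CPM. Asf1b, Esco2, Cep55, Shcbp1, Pbk, Anln and Tpx2, which serve chromatin assembly, cohesion and mitosis, were also among the 10 lowest and ranged from -4.82 to -5.34. Mki67, the proliferation marker, had at least 1 UMI in 35.8% of the cells, against 46.3% in S-phase cluster 3 and 29.9% in pre-pit cluster 4, at median depths of 31337, 33317 and 32262 UMIs, and in 52 of the 471 cells of neck cluster 0. The D-type cyclins were not called: Ccnd1 stood at 131.7 and 129.5 CPM against 126.8 and 131.4 CPM in the isthmus clusters, and Ccnd2 at 253.6 and 210.7 CPM against 184.5 and 174.4 CPM. Of the 19 G1 cyclins, inhibitors and partners tested, 5 were lower and 0 higher, namely Ccne1, Ccne2, Cdkn2c, E2f1 and Rbl1. Because the clusters differ in phase, the deficit of cycle genes and the phase calls are the same measurement.

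What stood higher in cluster 11 than in the isthmus clusters were the immediate early genes, transcription factors and signal regulators that are switched on within minutes of a stimulus. Of the 20 in the list, 16 were higher and 0 lower, with a median of 1.29 on the log2 scale, where 2.04% of all genes were called higher. Atf3, a stress-responsive transcription factor (chr1:190902493-190950241), stood at 1093 and 875.4 CPM against 173.0 and 404.2 CPM in the isthmus clusters (1.78, SE 0.34). Fos, a subunit of the AP-1 factor (chr12:85520658-85524047), stood at 2608 and 2145 CPM against 719.2 and 1108 CPM (1.39, SE 0.19). Its partner Fosb stood at 1012 and 792.5 CPM against 209.1 and 433.8 CPM (1.51, SE 0.26). In all of these genes both pools of cluster 11 lay above both pools of the isthmus clusters. Egr1, Jun, Junb, Jund, Klf2, Klf6, Ier2 and Zfp36, whose product destabilises mRNAs, were called higher too. Fosl2 at 170.8 and 142.0 CPM and Myc at 85.0 and 88.2 CPM were not called, with log2 fold changes of 0.63 and 0.61.

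The 10 largest positive differences at 50 CPM or more were Bpifb1, Atf3, Tcim, Socs3, Klf2, Trib1, Nr1d1, Maff, Zfp36 and Fosb, from 2.01 down to 1.51. Socs3 is a feedback inhibitor of cytokine signalling, Trib1 a pseudokinase, Nr1d1 a clock repressor and Maff a small Maf factor. Trib1 stood at 223.4 and 157.5 CPM against 44.9 and 76.3 CPM, and Maff at 96.1 and 74.3 CPM against 16.5 and 38.9 CPM. Bpifb1, which encodes a secreted lipid-binding protein of mucosal surfaces, headed the list through few cells, as given further on.

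Genes downstream of growth factor and inflammatory signals were called higher in smaller numbers, to be read against the 2.04% of all genes called higher. Of 18 EGF receptors, ligands and ERK targets, 4 were higher than in the isthmus clusters and 0 lower: the ligands Areg at 48.2 and 26.4 CPM and Hbegf at 79.5 and 95.7 CPM, the receptor inhibitor Errfi1 at 134.3 and 155.2 CPM, and the phosphatase Dusp4 at 5.89 and 12.3 CPM. Areg was detected in 30 of the 70 cells of pool K and in 33 of the 109 cells of pool T. Its 3 highest cells per pool held 55.7% (K) and 36.2% (T) of its counts. The 18 cells described further on held 23.7% (K) and 42.2% (T) of them. Hbegf was detected in 52 and 77 cells, and the 18 cells held 7.9% and 12.6% of its counts. Egfr itself stood at 33.9 and 26.8 CPM and was not called (0.43). Of 12 NF-kB targets and TNF receptors, 6 were higher, among them Nfkbia, the inhibitor of NF-kB, at 316.8 and 268.6 CPM against 108.2 and 156.1 CPM, and Tnfaip3, which also restrains it, at 54.5 and 32.7 CPM. Of 19 p53 and stress response genes 6 were higher, with Gadd45b at 155.7 and 141.4 CPM against 41.4 and 67.3 CPM and Bbc3, a pro-apoptotic gene, at 40.5 and 38.6 CPM against 8.87 and 18.2 CPM. Cdkn1a, the p53 target that halts the cycle, stood at 34.2 and 46.8 CPM against 21.1 and 36.2 CPM, and was not called. Of 12 heat shock genes 1 was higher, the co-chaperone Dnajb1 at 490.2 and 326.1 CPM against 137.9 and 244.9 CPM. The list medians were 0.43, 1.01, 0.67 and 0.005, in that order, against 0.031 over all genes. In pools K and T of neck cluster 0 the EGF list took 0.0878% and 0.0971% of UMIs, against 0.0853% and 0.0873% in cluster 11. The p53 and stress list took 0.219% and 0.216% there against 0.192% and 0.209%, and the heat shock list 0.861% and 0.98% against 0.73% and 0.754%. The NF-kB list took 0.0752% and 0.0759% in neck cluster 0, against 0.0948% and 0.0795% in cluster 11.

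The immediate early level was not particular to cluster 11. The 20 genes together took 1.56% (K) and 1.38% (T) of the UMIs of cluster 11, but 2.04% and 2.30% in neck cluster 0, and 0.122% to 0.203% in the other 2 neck clusters. In the isthmus clusters they made up 0.328% to 0.476% in pool K and 0.667% to 0.874% in pool T, and in pre-pit cluster 4 they made up 0.147% and 0.175%. Cell by cell, the median was 1.40% in cluster 11, with 10th and 90th percentiles of 0.477% and 2.53%. Cells at or above that 10th percentile were 99.2% of neck cluster 0, 36.6% to 48.9% of the 4 isthmus clusters and 6.2% of pre-pit cells. These genes are known to respond within the time of a tissue dissociation. How much of their level arose in the tissue and how much after its removal was not tested.

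**Figure D2:**
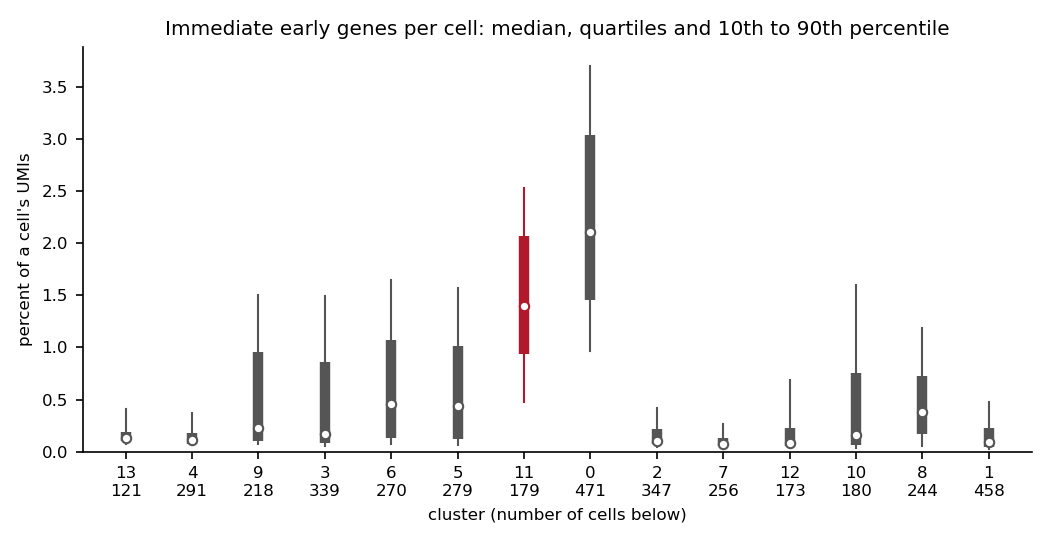
For each cluster the share of a cell's UMIs taken by the 20 immediate early genes is drawn as the median (circle), the quartiles (thick bar) and the 10th to 90th percentile (line), with the number of cells under the cluster. Cluster 11, in red, has a median of 1.40%, between neck cluster 0 at 2.11% and every other cluster, whose upper quartiles reach at most 1.07%.

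Against pre-pit cluster 4, 389 genes were higher (3.01%) and 156 were lower (1.21%). Among the lower genes were pit markers, of which 9 of 17 were lower and 0 higher, with a list median of -1.01. Gkn2 (chr6:87350339-87356479) stood at 13550 and 6601 CPM against 33500 and 36310 CPM (-1.79, SE 0.35), Gkn1 at 13500 and 6504 CPM against 30860 and 31880 CPM, and the trefoil peptide Tff1 at 15720 and 11960 CPM against 36290 and 42270 CPM. The iodide transporter Slc5a5 had the largest deficit among called genes at 50 CPM or more in pre-pit cells, at 51.1 and 49.5 CPM against 200.9 and 298.9 CPM (-2.32, SE 0.26). Psca, a surface antigen of pit cells, Fhl1 and the glutathione transferases Gsta1, Gsta2, Gsta3 and Gm3776 completed the 10 lowest with Muc5ac. Gsta1, Gsta2 and Gm3776 are close copies, and how reads shared between copies were counted is not given in the sources used here. None of the 17 pit markers had a log2 fold change above 0, but not every one was called lower. Anxa10 stood at 1576 and 1458 CPM, Muc1 at 730.1 and 705.2 CPM and Cldn18 at 1203 and 977.7 CPM. Their log2 fold changes were -0.25, -0.21 and -0.19.

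Higher than in pre-pit cells were again the immediate early genes, 17 of 20 with a median of 3.20, led by Atf3 (5.33, SE 0.60) at 20.2 and 28.5 CPM in the pre-pit pools and Fosb (4.97, SE 0.45) at 24.2 and 33.1 CPM there. Csrnp1, Nr4a1, Maff, Zfp36, Klf2, Socs3, Bpifb1 and Nr1d1 followed, from 4.61 for Csrnp1 downward. Of the neck markers 4 of 15 were higher, among them Muc6 at 2.11 (SE 0.34), and at 1.70 (SE 0.34) without the 18 cells described further on. The water channel Aqp5, at 23.9 and 61.1 CPM, and Cd44, at 6.99 and 27.9 CPM, were called too, but those 18 cells held 13.8% of the pool K and 60.2% of the pool T UMIs of Aqp5, and 52.6% and 78.9% of those of Cd44. In the remaining pool K cells Cd44 stood at 3.91 CPM of all UMIs, below the 5.4 of pre-pit cells. B4galnt3, a glycosyltransferase, was the 1 neck marker called lower. Lrig1, a negative regulator of EGF receptors and a reported stem cell marker, stood at 47.8 and 48.6 CPM against 24.2 and 23.2 CPM (1.03, SE 0.15). Of the 18 EGF pathway genes 7 were higher than in pre-pit cells, with Hbegf at 2.58 (SE 0.36).

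Against neck clusters 0, 2 and 7, 577 genes were higher (4.47%) and 877 were lower (6.79%). Pit genes were higher, 10 of 17 markers with a median of 3.64, among them Tff1 (4.85, SE 0.26), Gkn1 (4.61, SE 0.27) and Gkn2 (4.60, SE 0.26), which stood at 353 to 479.7 CPM in neck cells. The largest difference at 50 CPM or more belonged to Gsdmc2, a gasdermin, at 107.1 and 94.1 CPM against 4.75 and 1.25 CPM (5.19, SE 0.26). Aldh3a1 and Adh7, which oxidise aldehydes and alcohols, Gsta1, Sptssb, S100a6 and Vstm2b also stood among the 10. Of the 15 neck markers 5 were lower and 2 higher, and of the 10 chief markers 6 were lower and 1 higher. Muc6 had the largest deficit among called genes at 50 CPM or more in neck cells (-4.07, SE 0.28). The neck transcription factors Isl1 and Spdef were lower, by log2 fold changes of -2.12 and -1.56, and Klf4, a factor of pit differentiation, was higher at 567.1 and 515.9 CPM against 105.9 and 104.6 CPM (2.82, SE 0.07). Tff2, a trefoil peptide commonly assigned to neck cells, was higher in cluster 11, at 18400 and 18320 CPM against 6017 and 7726 CPM. Igf1, Pdia2, Furin, A4gnt, Cblif, Clps, Spp1, Pga5 and Glp1r, which include a growth factor, a secretory disulfide isomerase, the glycosyltransferase of gland mucin, intrinsic factor and a second pepsinogen, completed the 10 lowest.

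The position of cluster 11 between the lineages was measured with 334 genes that lay at least 4-fold apart between pre-pit cluster 4 and the neck clusters, a choice in which cluster 11 took no part. Of these, 127 were higher in pre-pit cells and 207 in neck cells. Cluster 11 lay at a median of 77.1% of the log2 distance from neck to pre-pit in pool K and 66.6% in pool T. It lay beyond the pre-pit level in 15.3% of the genes in pool K and 5.7% in pool T, and below the neck level in 3.3% and 3.9%. Cluster 9 lay at 80.9% and 75.4%, and clusters 5, 6 and 3 followed at 70.9% and 69.2%, 65.3% and 55.4%, and 50% and 45.5%. Compared within each pool, since a pool is the same mice in every cluster, cluster 11 lay below cluster 9 in both, above cluster 5 in pool K and below it in pool T, and above clusters 6 and 3 in both. The 2 pools of cluster 11 lay further apart than its distance from cluster 9 in either pool, and the difference was not tested.

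**Figure D3:**
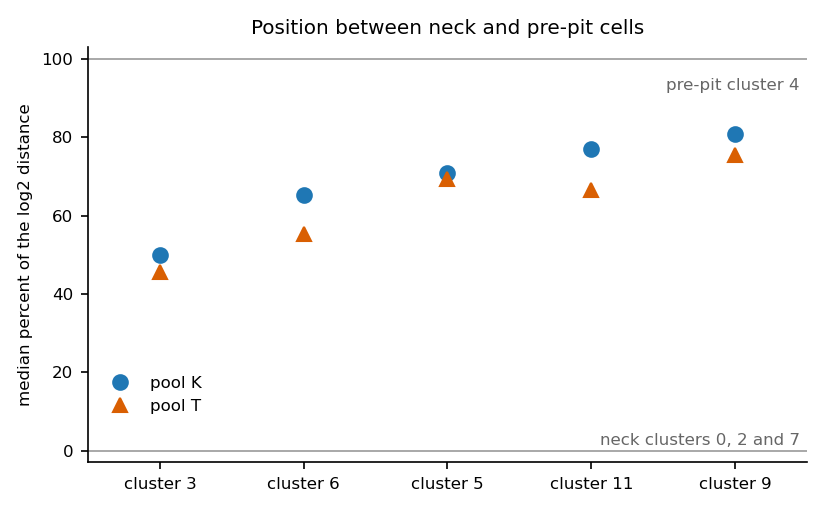
The median position of each isthmus cluster on the log2 distance from neck clusters 0, 2 and 7 (0%) to pre-pit cluster 4 (100%) over 334 genes, with a circle for pool K and a triangle for pool T. Cluster 11 lies at 77.1% and 66.6%, its pools on either side of cluster 5, and its pool K between the pools of cluster 9 at 80.9% and 75.4%.

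A median position can come from cells that are alike or from a mixture. In single cells Muc5ac ran from 0 UMIs per 10000 at the 10th percentile to 3.18 at the median and 39.9 at the 90th percentile, and Gkn2 from 1.58 to 9.15 and 330. In pre-pit cells the Gkn2 percentiles were 13.5, 353 and 615. A cell was counted as carrying a mucin where it exceeded the 95th percentile of parietal cells, which make neither. By that limit 87 of the 179 cells carried Muc5ac only (48.6%), 46 carried Muc6 only (25.7%), 26 carried both (14.5%, 95% Wilson interval 10.1 to 20.4%) and 20 carried neither. These intervals cover counting error only. Cells with both made up 12.9% to 21.2% of the 4 isthmus clusters, 10.4% to 16.4% of the neck clusters and 7.2% of pre-pit cluster 4. With each cell thinned to 10000 UMIs, which left out 1 cell, the share with both fell to 5.6%, and at the 99th percentile of parietal cells it was 0.6%, so the share depends on the limit. Cells with neither mucin were 11.2% of cluster 11 (7.4 to 16.6%), against 2.1% to 6.1% of the pre-pit and isthmus clusters, whose median depths were 31356 to 50083 UMIs. That share in cluster 11 depends on the limit as well, at 23% after thinning, 43% at the 99th percentile and 3.9% at 1 UMI.

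The boundaries of the cluster were loose. When the profiles of one pool were used to assign the cells of the other, 106 of the 179 cells (59.2%) returned to cluster 11, 25 went to neck cluster 0, 19 to pre-pit cluster 4, 10 to isthmus cluster 9 and 9 to pit cluster 13. Clusters 3 and 2 returned a like share, 58.4% and 62.2%, and the other 11 epithelial clusters returned 66.5% to 99.4%.

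Genes leading a cluster stood at least 1.5 times above every other epithelial cluster in both pools. By that rule pre-pit cluster 4 had 0, and isthmus clusters 9, 3, 5 and 6 had 2, 10, 83 and 90. Neck clusters 2, 7 and 0 had 1, 7 and 35, and cluster 11 had 14. In order of that ratio the 14 were S100g, Mcpt2, Onecut2, Muc4, Cftr, Cldn2, Osgin1, Eid3, Zfp296, Matn4, Wfikkn1, Krt7, Tnfaip3 and Dmbt1. Of these, 6 rested on a handful of cells. For S100g, a calcium-binding protein, Mcpt2, a mast cell protease, Onecut2, a transcription factor, Muc4, a membrane mucin, Cftr, a chloride channel, and Cldn2, a leaky tight-junction claudin, 3 cells held over 50% of the UMIs in each pool. In pool K a single cell held 64 of the 67 UMIs of S100g and 69 of the 71 of Onecut2. By contrast Osgin1, an oxidative stress response gene (chr8:120152470-120173000), was found in 50 of 70 and 78 of 109 cells at 66.7 and 101.3 CPM of all UMIs, and Tnfaip3 in 41 and 67 cells. Others were less spread in 1 pool. In pool T 3 cells held 52.6% of the UMIs of Eid3 and 54.5% of those of Matn4, and in pool K 51.0% of those of Krt7.

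The cells behind the 6 genes were 18, defined by at least 3 UMIs of any of them: 3 in pool K and 15 in pool T, on 8 plates, all called G1. They were 10.1% of cluster 11, and 20 of the 3647 cells of the other epithelial clusters met the same limit. Of those 20, 7 were in pit cluster 13, which held 121 cells. The genes were chosen for being highest in cluster 11, so an excess there was fixed by the choice. Of the 18, 12 carried 2 or more of the genes. Their median depth of 31360 UMIs was that of the remaining 161 cells at 31337. Since the 18 were picked by these genes, their levels are a description. They held little Muc5ac and Gkn2, although Tff1 remained at 11500 and 5670 against 18100 and 14800. Muc5ac stood at 20.2 and 44.8 CPM of all UMIs against 1580 and 1870 in the remaining cells, and Gkn2 at 192 and 591 against 16000 and 8540. Pgc was lower too, at 4560 and 15800 against 39700 and 35700. Higher in them were Bpifb1 at 10300 and 5910 against 238 and 400, Clu, the chaperone clusterin, at 19700 and 20600 against 6150 and 8090, the ductal keratin Krt7 at 404 and 431 against 26.1 and 39.8, the lectin Lgals4 at 1260 and 894 against 65.2 and 123, and the cornified envelope gene Sprr2a3 at 5860 and 3810 against 231 and 933. Krt20, a keratin of mature gastric and intestinal epithelium, came from 1 cell in pool K and 4 cells in pool T, and the 18 cells held 100% and 89.8% of its UMIs. The study used both keratins, Krt7 and Krt20, as markers of antrum rather than corpus pit cells. What that means for the 18 cells was not tested. Gkn3, a gastrokine of neck cells, had 20.4% of its 49 pool K UMIs and 96.1% of its 1624 pool T UMIs in the 18 cells, 1034 of the latter in a single cell.

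**Figure D4:**
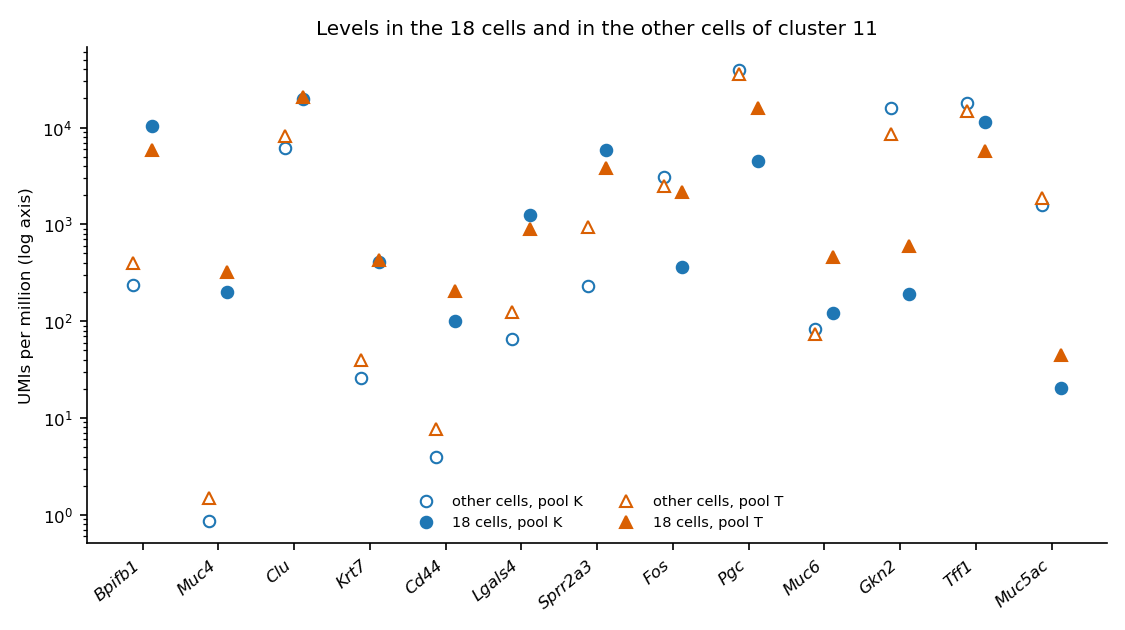
CPM of all UMIs on a log axis in the 18 cells (filled) and in the remaining 161 cells of cluster 11 (open), with circles for pool K and triangles for pool T. Bpifb1, Muc4, Clu, Krt7, Cd44, Lgals4 and Sprr2a3 lie higher in the 18 cells in both pools, and Pgc, Gkn2, Tff1 and Muc5ac lie lower, Muc5ac at 20.2 and 44.8 against 1580 and 1870.

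Without the 18 cells, a choice made after the data were seen, 201 genes were higher and 803 lower than in the isthmus clusters, 316 and 181 against pre-pit cells, and 532 and 1041 against neck cells. Bpifb1 then differed from the isthmus clusters by 0.59 (SE 0.22) in place of 2.01 and was no longer called, and the calls of Krt7, Dmbt1, Muc4 and S100a6 against the isthmus clusters were lost as well. Atf3 at 1.83, Fosb at 1.55 and Zfp36 at 1.59 held their calls. Genes leading the cluster in both pools were then 8: Eid3, Osgin1, Zfp296, Tnfaip3, Matn4, Wfikkn1, Phlda2 and Cebpb. Of these Cebpb, a transcription factor of acute responses, had the highest level at 200.8 and 239.8 CPM of all UMIs, against 123.0 and 157.7 in neck cluster 0. Eid3, Matn4 and Wfikkn1 lay near the limit of 10 UMIs, with 18 and 19, 23 and 10, and 11 and 24 UMIs in pools K and T.

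Markers of other cell types were counted over whole lists. Stromal markers summed to 3 UMIs, with 5 of 8 at 0, endothelial markers to 8 with 2 of 6 at 0, and leukocyte markers to 60, of which Cd68 gave 53 and Ptprc 1. The 10 endocrine markers took 0.00396% (K) and 0.0143% (T) of the counts, against 0.00429% to 0.00738% in the 4 isthmus clusters. Of these markers Gast, Neurod1 and Pax6 were at 0. Chga reached 70.2 CPM in pool T against 9.57 in pool K, with 274 of its 309 pool T UMIs in a single cell. Ghrl was detected in 37.4% of cluster 11 and Sst in 17.9%, against 48.1% and 24.4% of the other epithelial cells. The tuft markers took 0.00375% and 0.00576% of UMIs, against 0.0026% to 0.00491% in the 4 isthmus clusters. Of these Pou2f3 and Sh2d6 were at 0, while Avil had a UMI in 36.9% of cluster 11 against 19.2% of the other epithelial cells, and Ltc4s in 35.8% against 27%. Their part in the results was not tested. Parietal markers made up 0.54% and 0.546% of UMIs, inside the 0.402% to 0.693% of the 4 isthmus clusters, and enterocyte markers 0.0234% and 0.0332% against 0.0187% to 0.031%. No doublet caller was run on these sorted single cells, and the deepest cell held 103579 UMIs.

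The pools gave cluster 11 in unlike shares. It took 1.53% to 5.03% of the kept cells of the pool K plates, with a median of 3.83%, and 4.27% to 6.07% with a median of 5.4% on the pool T plates. The ranges overlapped, and the means were 3.6% ± 1.33 and 5.32% ± 0.662 (SD, n = 6 plates each), a difference of 1.72 percentage points (exact two-sided permutation test over plates, p = 0.0173). As a share of the isthmus clusters including cluster 11, the means were 12.2% ± 3.62 and 15.3% ± 1.68, and the difference did not pass the threshold (exact permutation test, p = 0.0801). The lowest plate, of pool K, held 5 cells of cluster 11 among 327 kept cells. Without it the difference was 1.31 percentage points (exact permutation test, p = 0.0346).

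Within cluster 11, 7300 genes were tested between the pools over the 12 plate sums with edgeR, and 10 were higher in pool T (0.137%) and 21 in pool K (0.288%) at a Benjamini-Hochberg adjusted p under 0.05. Spp1, which encodes osteopontin (chr5:104582165-104589235), ranged over the plates from 16.9 to 120 CPM with a median of 25.9 in pool K, and from 109 to 340 with a median of 187 in pool T (2.67 on the log2 scale, SE 0.33, edgeR adjusted p = 9.53e-05). The pool K plate with 5 cells of cluster 11 was the one that overlapped pool T. Sprr2a3 ran from 101 to 860 CPM in pool K and from 673 to 1710 in pool T (1.64, SE 0.29, edgeR adjusted p = 0.00867). It belongs to a family of near-identical copies. Tfrc, the transferrin receptor, did not overlap between the pools, at 302 to 418 against 551 to 975 CPM (0.94, SE 0.13, edgeR adjusted p = 0.000334), and neither did the metallothionein Mt2, at 547 to 1390 against 1500 to 3410 CPM. Fads1, a fatty acid desaturase, was higher by 1.36 and the linker histone H1f2 by 0.88. Clu was higher in pool T as well, at 8880 to 12400 against 6200 to 7700 CPM.

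Higher in pool K was Irf1, an interferon response factor (chr11:53660812-53669200), at 74.5 to 210 CPM against 42.6 to 61.0 in pool T, with no overlap (-1.60, SE 0.20, edgeR adjusted p = 9.53e-05). The gastrokines differed in the same direction, Gkn1 at 10500 to 31900 against 3760 to 11900 CPM (-1.23, SE 0.21, edgeR adjusted p = 0.00563) and Gkn2 at 10000 to 31600 against 2810 to 12000 CPM (-1.18, SE 0.24, edgeR adjusted p = 0.0166). Both overlapped between the pools. Sbno2 and Socs3, which act in cytokine feedback, and the kinase Itpkc made up the 6 largest, from -1.17 to -1.03, with Socs3 at 74.7 to 321 against 62.5 to 137 CPM. Egr1 was the 1 immediate early gene called, at 1200 to 1890 against 990 to 1260 CPM (-0.45, SE 0.10, edgeR adjusted p = 0.0469). Muc5ac, at plate medians of 1860 and 1880 CPM, and Pgc, at 42900 and 35000, did not pass the test, with adjusted p of 1.0 and 0.339 in edgeR. Mki67 did not overlap between the pools, at 5.51 to 26.1 against 27 to 46.6 CPM, and missed the threshold (1.17, SE 0.28, edgeR adjusted p = 0.0575). Without the 18 cells, which were 3 of 70 in pool K and 15 of 109 in pool T, 14 genes were higher in pool T and 26 in pool K. Of the 12 largest changes named here, 11 kept their direction and passed the test in that fit, with Spp1 at 2.31 and Irf1 at -1.69, and Fads1 had no value in it.

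**Figure D5:**
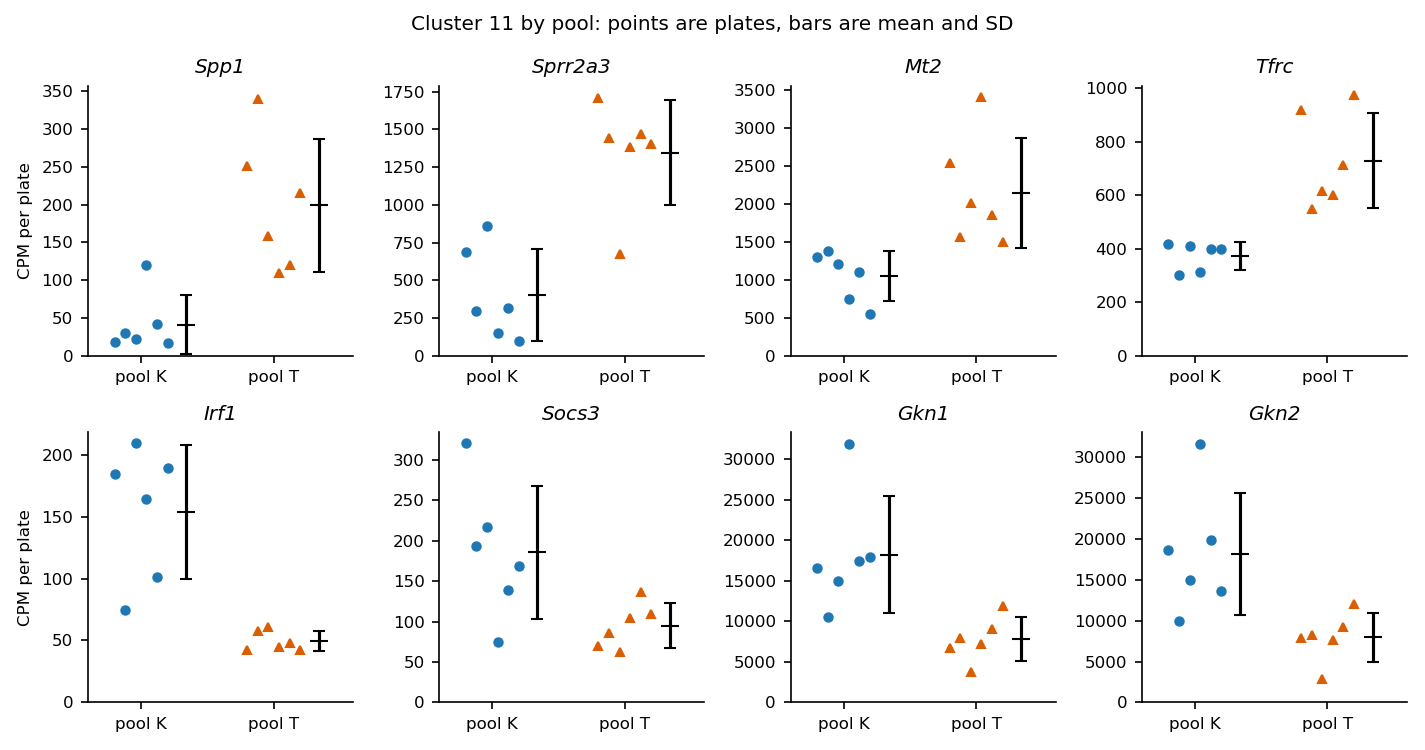
CPM of 8 genes in cluster 11 on each plate, circles for the 6 plates of pool K and triangles for the 6 plates of pool T, with the mean and SD as bars. Tfrc, Mt2 and Irf1 do not overlap between the pools, while Spp1, Sprr2a3, Socs3, Gkn1 and Gkn2 share part of their range, and 1 plate of pool K is the highest of its pool for Spp1 at 120 CPM and Gkn1 at 31900 CPM.

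Whether these pool differences were those of the tissue at large was asked with the same plates as blocks, in a fit added after the data were seen. The pool difference of cluster 11 departed from that of the isthmus clusters in 88 of 10361 genes (0.849%), from that of pre-pit cells in 35 of 8204 (0.427%) and from that of neck cells in 262 of 9874 (2.65%). The neck cells were spread over their clusters differently in each pool, with 135 pool K and 336 pool T cells in cluster 0, 236 and 111 in cluster 2, and 174 and 82 in cluster 7, so the pool difference of neck cells contains that of the mix. Of the 31 genes called between the pools, 13 departed from the isthmus clusters. The 31 were chosen by the pool difference of cluster 11 that also enters this test, and that choice favours departures. Tfrc, Mt2, Sprr2a3 and H1f2 did not pass it, with departures of 0.10, 0.31, 1.02 and 0.29 on the log2 scale. In the isthmus clusters they were higher in pool T too, by 0.81, 0.72, 0.62 and 0.545. Not passing does not show that the differences were alike, and Sprr2a3 had the largest departure of the 4 (SE 0.29, edgeR adjusted p = 0.116). Spp1 differed by -0.12 between the pools in the isthmus clusters, so that the departure was 2.74 (SE 0.32, edgeR adjusted p = 1.2e-06), and Irf1 by 0.04, a departure of -1.60 (SE 0.16, edgeR adjusted p = 1.21e-07). Of the 19 immediate early genes tested, 15 were lower in the pool difference of cluster 11 than in that of the isthmus clusters, the departures running from -1.65 to -0.76 on the log2 scale. In the isthmus clusters those 15 were higher in pool T, by 0.56 to 1.43, while in cluster 11 the 14 of them with a value ran from -0.45 to 0.15. The same test passed 1 of the 19 against pre-pit cells and 18 of the 19 against neck cells, each lower in cluster 11. The mix of clusters moves with the neck count: the 20 immediate early genes took 2.04% and 2.3% of UMIs in pools K and T of cluster 0, but 0.122% to 0.203% in clusters 2 and 7. The 4 isthmus clusters each held more in pool T, at 0.667% to 0.874% against 0.328% to 0.476% in pool K, whereas cluster 11 held 1.56% and 1.38%. Fosb, for example, differed by 0.99 in the isthmus clusters and by -0.41 in cluster 11. The clustering had read the levels of these genes in both pools, and what part that took in the departure was not tested.

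In the other experiment, too few cells were assigned to cluster 11 for a check in further mice. Among 191 kept cells of that experiment, from pit, isthmus and neck clusters, the profiles of the corpus clusters assigned 2 to cluster 11 with 1 set of genes. The remaining genes assigned 1, and all were in the same pool and in G2/M. No comparison was made there. Per the study's methods, that experiment used pronase before collagenase, and the corpus experiment used them in the reverse order. Medians of the immediate early genes were 0.101% to 0.218% of UMIs in the clusters of these cells, against 1.40% in cluster 11. What part this took in the assignment was not tested.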

How the data were processed

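Kept cells of 2 corpus pools, K and T, were analysed from UMI counts. Per the study's methods, the authors made the deposited counts per gene and well by aligning reads to GRCm39 with STAR under a Gencode annotation, with read handling in FASTX-Toolkit and Drop-seq tools, and kept wells with at least 2500 detected genes. The percent of mitochondrial UMIs, the S and G2/M scores with the phase calls, and the cluster numbers were deposited by the authors from Seurat. The submitters' processing notes name bcl2fastq 2.20.0.422. Plates held 10540256 to 12850942 UMIs, and counting intervals cover counting error only. No doublet caller was run, since cells were sorted 1 to a well.

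UMIs were summed over 14 epithelial clusters and 2 pools and fitted with edgeR 4.0.16 (R 4.3.3, quasi-likelihood, TMM factors, filter on low counts), with a called gene differing at least 2-fold, its pools apart, and 10 UMIs in each pool of the higher group. Pools within cluster 11 were compared over 12 plate sums in edgeR with Benjamini-Hochberg adjustment, and shares of cells by an exact permutation test (scipy 1.17.1). DESeq2 1.42.0, unfiltered counts, thinning to 10000 UMIs, G1 cells alone and leaving out pools or plates were the alternatives. Coordinates are those of GENCODE M39 on GRCm39. The scripts were tested on simulated data.

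Genes named were Muc5ac and Pgc, in each cluster comparison the 10 largest called differences in each direction at 50 CPM or more, up to 15 genes leading cluster 11, the 6 largest pool changes in each direction, and 2 to 6 members of each list. Members and lists were chosen with earlier results of these data known, and other genes were named with their values in view. Some genes that these rules select are not reported here. Pairing comes from the design, in which a pool is the same mice in every cluster. Over 13 cluster pairs the deviations correlated with r from 0.02 to 0.175, median 0.076.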

Additional observations from a re-analysis of the deposited data

Results flagged for a closer look

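The plate values in cluster 11 of the 12 genes named for their pool change, and the share of cells in cluster 11, were checked for a plate standing apart from the other 5 of its pool. Of 26 such checks 3 marked a plate, and chance marks about 1 in 20. The pool K plate with 5 cells of cluster 11 stood apart for Gkn1 at 31900 CPM against a median of 17100 CPM, and for Spp1 at 120 CPM against a median of 25.9 CPM. A pool T plate stood apart for Sprr2a3 at 673 CPM against a median of 1420 CPM.

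By a test of the difference itself (edgeR with plates as blocks), the pool difference in cluster 11 departed from that in the isthmus clusters for the genes below, out of those named, the immediate early genes, Clu and Mki67. Among the 12 genes named for their pool change, the departures were 2.74 for Spp1, 1.16 for Fads1, -1.60 for Irf1, -1.19 for Socs3, -0.98 for Itpkc and -0.81 for Gkn1 on the log2 scale. Gkn1 was lower in pool T in the isthmus clusters too, with a log2 fold change of -0.38. Of the immediate early genes, the departures were -1.65 for Fosl1, -1.56 for Atf3, -1.41 for Fosb, -1.36 for Klf2, -1.28 for Egr1, -1.16 for Nr4a1, -1.13 for Zfp36, -1.03 for Jun, -1.0 for Junb and for Jund, -0.92 for Btg2, -0.90 for Klf6, -0.87 for Fos, -0.77 for Ier2 and -0.76 for Ier3. Of the other genes, they were -1.55 for Maff, -1.31 for Trib1, -1.29 for Csrnp1, -0.99 for Nr1d1, -0.75 for Tcim, 0.39 for Clu and 1.09 for Mki67. This test was added after the data were seen.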

How the results depend on the processing

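Without the filter on low counts, 1158 genes were higher and 3001 lower than in the isthmus clusters, 1528 and 899 against pre-pit cells, and 1629 and 2701 against neck cells, and between the pools 137 were higher in T and 93 in K. With an adjusted p required as well, 101 genes were lower than in pre-pit cells. With 1 pool left out, each cluster held a lone sum, so variation between sums could not be estimated from them. Genes higher than in the isthmus clusters then ranged from 431 to 470. Against pre-pit cells 503 to 795 were higher and 273 to 323 lower, and 69 to 88 genes led cluster 11. That last count was 5 at a ratio of at least 2, 8 after thinning and 8 without the 18 cells. DESeq2 called 18 genes higher in T. With 1 plate left out the count was 11 to 24 higher in T and 11 to 36 higher in K, and plates of both pools moved it by over 1.5 times. The position was 63.4% with neck cluster 0 alone. The share with both mucins was 0.6% at the 99th percentile, 52.0% at 1 UMI and 5.6% after thinning. The share of isthmus cells differed by 3.11 points and missed the threshold, and the other set of genes assigned 1 cell. The causes were not tested.

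With a replicate block for the pools, 262 genes were higher and 723 lower than in the isthmus clusters, 389 and 150 against pre-pit cells, and 573 and 873 against neck cells, and no count moved by over 1.5 times. Of 1695 values of named genes in the cluster comparisons, 201 moved and 0 reversed. Left out of these values were genes with almost no UMIs once the 18 cells were removed. Among them was Cftr, at -2.92 against the isthmus clusters in place of 3.31. Of 178 pool values, 2 lost their call, Sbno2 and Itpkc, each with 1 pool K plate left out. In the further experiment, all genes assigned 2 cells, as in the report, and the alternatives of tool, block and filter were not run there, since no comparison was made. With 2 pools, differences between mice and operators cannot be told apart.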
